A study of Rattus norvegicus with 2 samples.

Results

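Tissue inhibitors of metalloproteinases (TIMPs) and the matrix metalloproteinases they block were examined in rat lung. The members are 3 inhibitor genes (*Timp1*, *Timp2* and *Timp3*) and 7 protease genes (*Mmp2*, *Mmp3*, *Mmp7*, *Mmp8*, *Mmp9*, *Mmp12* and *Mmp14*). They were taken by gene symbol: each of the array's probe sets, control probe sets aside, counted as a member when the platform annotation gave it exactly 1 symbol and that symbol was one of the 10. This gave 17 of 31042 probe sets and 10 of 14217 genes, with 7 probe sets for inhibitors and 10 for proteases, and all 10 genes were represented. The study asked how reproducible gene expression values are, with total lung RNA on 2 Affymetrix Rat Genome 230 2.0 arrays. One array was made by experimenter 2 and the other by experimenter 1, numbered by their sample titles. The sources used here do not give the animals' strain, sex, age, number or treatment, nor whether both experimenters shared a lung or RNA.

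Neither experimenter has a second array, so no replicate error or test exists and every difference here describes a pair of arrays. Differences are experimenter 2 minus experimenter 1, in log2 units. Over all 31042 probe sets the SD of this difference was 0.28 and its median -0.052, and the array medians were 6.28 for experimenter 2 and 6.32 for experimenter 1. The value of a probe set also depends on how well its probes bind, so a higher value for one gene than for another is not a higher amount of transcript. The lung label was checked on 4 alveolar type 2 markers, which ran from 12.67 to 14.36 for experimenter 2 and from 12.74 to 14.39 for experimenter 1.

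Matrix metalloproteinases are zinc-dependent enzymes that cut collagens, elastin, proteoglycans and other proteins outside the cell. Most are secreted as inactive proenzymes, while a membrane-type group is anchored at the cell surface. TIMPs bind the active site of these enzymes and block it. In lung the balance between the proteases and TIMPs is best known from the turnover of elastic fibres and collagen in alveolar walls, and macrophage and neutrophil metalloproteinases from inflammation.

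The members included bright and dim genes, and the dim proteases lie mostly together in the genome. In the RefSeq gene table of rat assembly GRCr8, 10 *Mmp* genes follow each other on chromosome 8 with no other protein-coding gene between them, in the order *Mmp13*, *Mmp12*, *Mmp1b*, *Mmp3*, *Mmp1*, *Mmp10*, *Mmp8*, *Mmp27*, *Mmp20*, *Mmp7*. Members *Mmp3*, *Mmp7*, *Mmp8* and *Mmp12* belong to this run, whereas *Mmp2*, *Mmp9* and *Mmp14* lie on chromosomes 19, 3 and 15. The stretch from 100 to 21 bases before the gene start is shown for the 4 members of the run, which are dim or of middling value on these arrays, and for *Timp2* and *Timp3*, the brightest members. No sequence was available for *Mmp2*, *Mmp9* and *Mmp14*, so level and gene family cannot be told apart among those shown. Sequences are from RefSeq, build GRCr8, written 5′ to 3′ on the strand of the gene. Capitals mark matches to the TATA box (TATAAA), to the AP-1 motif (TGANTCA, bound by Fos and Jun family factors) and to the GC box (GGGCGG, bound by Sp1 family factors), on either strand.
Mmp3, chr8:12925181-12925260, plus strand: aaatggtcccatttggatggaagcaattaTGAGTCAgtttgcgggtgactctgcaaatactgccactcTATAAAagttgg
Mmp7, chr8:13132943-13133022, plus strand: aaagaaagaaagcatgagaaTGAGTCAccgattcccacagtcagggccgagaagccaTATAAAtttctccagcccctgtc
Mmp12, chr8:12866552-12866631, plus strand: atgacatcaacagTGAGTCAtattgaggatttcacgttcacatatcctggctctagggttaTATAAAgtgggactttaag
Mmp8, chr8:13008790-13008869, plus strand: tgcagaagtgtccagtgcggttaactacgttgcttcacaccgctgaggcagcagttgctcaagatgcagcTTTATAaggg
Timp2, chr10:104089235-104089314, minus strand: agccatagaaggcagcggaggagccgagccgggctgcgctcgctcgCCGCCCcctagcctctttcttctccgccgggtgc
Timp3, chr7:19459579-19459658, minus strand: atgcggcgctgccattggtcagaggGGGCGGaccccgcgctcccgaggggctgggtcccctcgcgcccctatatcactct

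*Mmp3*, *Mmp7* and *Mmp12* each have an AP-1 match followed by a TATA box. The AP-1 match begins 71, 80 and 87 bases before the start and the TATA box 32, 43 and 39 bases before it, in that order of genes. *Mmp8* has the TATA letters on the other strand, 30 bases before the start, and no AP-1 match. Neither inhibitor shown has a TATA or AP-1 match in the 250 bases searched, and both have GC boxes.

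*Timp3*, the inhibitor that binds to the extracellular matrix and also blocks ADAM-family proteases, had the highest value of all members. Its brightest probe set (1389836_a_at) read 12.59 for experimenter 2 and 12.50 for experimenter 1, a difference of 0.091. The probe set stood at percentile 99.5 on the array of experimenter 2 and 99.4 on that of experimenter 1, where the percentile is the share of all probe sets on that array with a lower value. The arrays were thus close for this probe set. In whole-tissue RNA, fewer cells of a type and less RNA per cell cannot be told apart.

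The other 3 probe sets of *Timp3* lay lower and did not all differ the same way. The second (1375138_at) read 12.56 for experimenter 2 and 12.30 for experimenter 1, and the third (1372926_at) read 9.43 and 9.30 in the same order. The fourth and dimmest (1368989_at) read 7.27 for experimenter 2 against 7.83 for experimenter 1, a difference of -0.57 or 1.48-fold. The first 3 were higher on the array of experimenter 2 by 0.091, 0.26 and 0.13, so the 4 probe sets of *Timp3* disagreed in direction. They spanned 5.32 on the log2 scale on the array of experimenter 2 and 4.66 on that of experimenter 1.

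*Timp2*, which blocks most metalloproteinases and also bridges proenzyme *Mmp2* to *Mmp14* at the cell surface, was the second brightest member. Its brighter probe set (1386940_at) read 11.85 for experimenter 2 and 11.92 for experimenter 1. Its dimmer probe set (1367823_at) read 6.91 for experimenter 2 and 7.09 for experimenter 1. Both were lower for experimenter 2, by -0.073 and -0.18, which is less than the SD of 0.28 over all probe sets.

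*Timp1*, a secreted inhibitor with a weak action on membrane-type enzymes, was measured by 1 probe set (1367712_at). It read 9.32 for experimenter 2 and 9.53 for experimenter 1, at percentiles 88.1 and 89.5. The difference of -0.21 is also under the SD over all probe sets.

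Both *Timp1* and *Timp3*, and the related *Timp4*, lie inside a synapsin gene in the RefSeq table, and *Timp1* and *Timp4* run on the opposite strand to their hosts. The hosts were dim: *Syn1* read 5.16 for experimenter 2 and 5.12 for experimenter 1, *Syn3* read 3.42 and 3.47, and *Syn2*, the host of *Timp4*, read 4.46 and 4.43. *Timp4*, an inhibitor best known from heart, read 4.38 for experimenter 2 and 4.66 for experimenter 1. The host of *Timp3*, whose gene was the brightest member, stood at percentile 10.9 for experimenter 2 and 10.4 for experimenter 1.

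Among the proteases, only *Mmp14* and *Mmp2* had a value as high as that of *Timp1* on either array. *Mmp14*, the membrane-anchored collagenase that activates *Mmp2*, read 9.73 for experimenter 2 and 9.90 for experimenter 1 by its brighter probe set (1367860_a_at). Its other probe set (1378225_at) read 8.09 for experimenter 2 and 8.32 for experimenter 1. Both were lower for experimenter 2, by -0.16 and -0.23.

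*Mmp2*, the gelatinase that cuts denatured collagen and basement membrane collagen, read 9.50 for experimenter 2 and 9.63 for experimenter 1 (1370301_at). The other *Mmp2* probe set (1369825_at) read 4.20 for experimenter 2 and 4.41 for experimenter 1. The probe sets of *Mmp2* therefore lay 5.29 apart on the array of experimenter 2, or 39.2-fold, and 5.22 apart on that of experimenter 1, while each differed between the arrays by only -0.13 and -0.21. By its second probe set *Mmp2* would rank with the dim proteases.

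*Mmp12*, the macrophage elastase, lay at the middle of the arrays. It read 6.21 for experimenter 2 and 6.40 for experimenter 1 (1368530_at), just under the array median for experimenter 2 and just over it for experimenter 1. The 3 macrophage markers measured of 6 listed ran from 10.16 to 14.49 for experimenter 2 and from 10.39 to 14.51 for experimenter 1. Their log2 summed level was 14.64 for experimenter 2 and 14.67 for experimenter 1. All 3 were lower for experimenter 2, as were 58.7% of all genes. Their median difference was -0.15, beside -0.19 for *Mmp12* and -0.049 for all genes. Marker lists of the other cell types had negative medians too, from -0.24 for endothelium to -0.028 for fibroblasts. The part of the macrophage markers in the difference of *Mmp12* was not tested.

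*Mmp9*, the gelatinase stored in neutrophil granules and also made by macrophages, gave opposite answers by its 2 probe sets. The brighter (1398275_at) read 4.69 for experimenter 2 and 4.29 for experimenter 1, a difference of 0.40. The dimmer (1369166_at) read 3.46 for experimenter 2 and 3.75 for experimenter 1, a difference of -0.28. *Mmp8*, the neutrophil collagenase, read 4.43 for experimenter 2 and 4.44 for experimenter 1 (1387735_at) and had the smallest difference of any member, -0.011.

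Of 6 neutrophil markers listed, 4 were measured, from 4.35 to 10.84 for experimenter 2 and from 4.58 to 11.28 for experimenter 1. Their log2 summed level was 11.51 for experimenter 2 and 11.77 for experimenter 1. Of the 4, 3 were lower for experimenter 2, as were 58.7% of all genes. *S100a9*, a calgranulin, differed by -0.44, and *S100a8*, its partner, by 0.15. Their part in the values of *Mmp8* and *Mmp9* was not tested.

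By brightest probe sets, *Mmp3* and *Mmp7* were the dimmest members on both arrays. For experimenter 1 the dimmer probe set of *Mmp9*, at 3.75, lay below that of *Mmp3*. *Mmp3*, a stromelysin that cuts proteoglycans and activates other metalloproteinases, read 3.12 for experimenter 2 and 3.82 for experimenter 1 (1368657_at). The difference of -0.70, or 1.62-fold, was the largest of any member, at percentile 1.07 of all differences. *Mmp7*, matrilysin, a small epithelial metalloproteinase without the hemopexin domain of its relatives, read 3.34 for experimenter 2 and 3.11 for experimenter 1 (1368766_at), a difference of 0.23. Both genes were dimmer than the lower quartile of each array, which was 4.37 for experimenter 2 and 4.42 for experimenter 1. Each has 1 probe set, and RMA values carry no detection calls, so these values have no stated background limit.

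**Figure D1:**
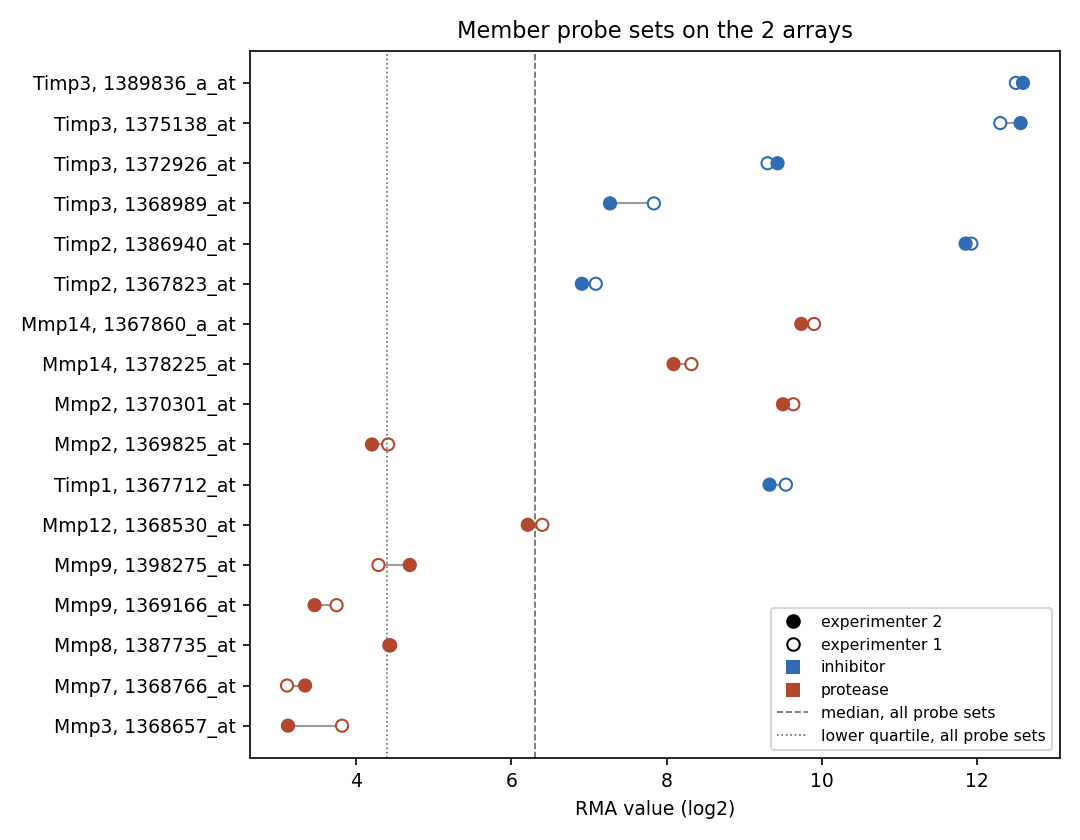
Each row is 1 of the 17 member probe sets, named by gene and probe set, with the RMA value (log2, horizontal axis) on the array of experimenter 2 as a filled point and of experimenter 1 as an open point; the dashed and dotted lines are the median and lower quartile of all probe sets, each averaged over the arrays. Probe sets of *Timp3*, *Timp2* and *Mmp2* lie up to 5.32 apart, whereas the points of a row differ by at most 0.70.

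Inhibitors were compared with proteases by the brightest probe set of each gene. The 3 inhibitors ran from 9.32 to 12.59, with a median of 11.85, for experimenter 2 and from 9.53 to 12.50, with a median of 11.92, for experimenter 1. The 7 proteases ran from 3.12 to 9.73, with a median of 4.69, for experimenter 2 and from 3.11 to 9.90, with a median of 4.44, for experimenter 1. The ranges overlapped, because *Mmp14* and *Mmp2* lay above *Timp1* on both arrays.

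The inhibitor median exceeded the protease median by 7.16 for experimenter 2 and by 7.49 for experimenter 1. In percentiles the inhibitor median was 98.9 for each experimenter, and the protease median was 29.4 for experimenter 2 and 25.2 for experimenter 1. These gaps rest on single probe sets of different genes. They narrowed to 5.12 on each array with the second brightest probe sets of the 5 members that have at least 2. The other members kept their only probe set. With the proteases limited to *Mmp14* and *Mmp2*, they were 2.23 for experimenter 2 and 2.16 for experimenter 1. Those are the 2 proteases with a mean no lower than the probe set median. The gaps also rest on which genes are members, since the medians of related genes outside the members had the reverse order. The 5 other inhibitors listed had a median of 4.48 for experimenter 2 and 4.66 for experimenter 1. The 10 other *Mmp* genes measured had medians of 6.83 and 6.82 in the same order. These inhibitors are a mixed list, and only the medians reverse. Its brightest gene, *Reck*, at 10.72 for experimenter 2 and 10.70 for experimenter 1, lay above all 10 of these *Mmp* genes.

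**Figure D2:**
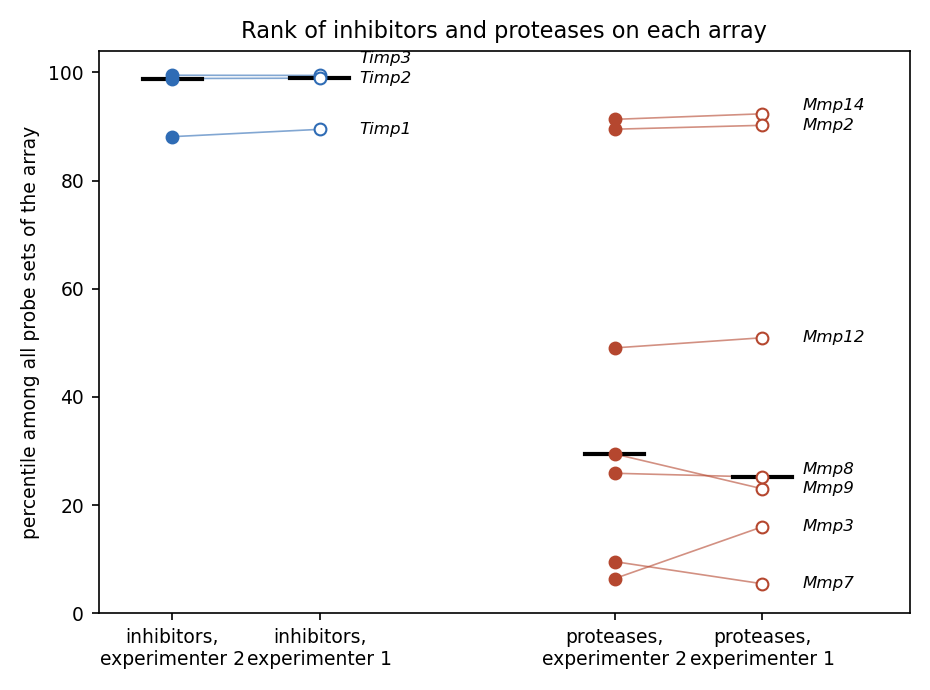
The percentile of each gene's brightest probe set among all 31042 probe sets of an array (vertical axis) is shown for the 3 inhibitors and the 7 proteases, with filled points for experimenter 2, open points for experimenter 1, lines joining a gene and black bars at group medians. *Timp2* and *Timp3* sit at percentile 98.9 or higher on both arrays, *Timp1*, *Mmp2* and *Mmp14* between 88.1 and 92.3, and the other 5 proteases at 50.9 or less.

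The distance of *Timp2* from its known partners was nearly the same on both arrays, and the other pairs shifted more. By brightest probe sets, *Timp2* lay above *Mmp2* by 2.35 for experimenter 2 and 2.29 for experimenter 1. It lay above *Mmp14* by 2.12 and 2.03 in the same order. That order rests on the probe set. The dimmer one of *Timp2*, at 6.91 for experimenter 2 and 7.09 for experimenter 1, lay below the brighter one of *Mmp2*. It also lay below both probe sets of *Mmp14*. *Timp3* lay above *Mmp14* by 2.86 for experimenter 2 and 2.60 for experimenter 1, a change of 0.26. By the dimmest probe set of *Timp3* the sign of that change would be reversed. *Timp1* lay above *Mmp9* by 4.63 for experimenter 2 and 5.25 for experimenter 1, a change of -0.61, and by the other probe set of *Mmp9* that change would have the opposite sign.

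The order of the 10 genes by level was the same on both arrays for the first 6, which were *Timp3*, *Timp2*, *Mmp14*, *Mmp2*, *Timp1* and *Mmp12*. Of the 9 gaps between neighbours in the order of experimenter 2, 6 exceeded the larger of both genes' differences between the arrays on each array. The other 3 did not: *Mmp2* and *Timp1* were 0.17 apart for experimenter 2 and 0.095 for experimenter 1, and the pairs *Mmp9* with *Mmp8* and *Mmp7* with *Mmp3* changed places between the arrays.

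Differences between the arrays were small for most members. By brightest probe sets, 1 of 10 genes, *Mmp3*, was at least 1.5-fold apart, against 3.24% of all 14217 genes, and a count of 1 cannot be set apart from that share. By probe sets it was 1 of 17, against 4.35% of all probe sets. Of the 10 genes, 7 were lower for experimenter 2, and 58.7% of all genes were. The median difference was -0.073 for inhibitors and -0.13 for proteases, beside -0.049 for all genes. The median size of the difference, sign aside, was 0.18 for the members and 0.16 for all genes.

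**Figure D3:**
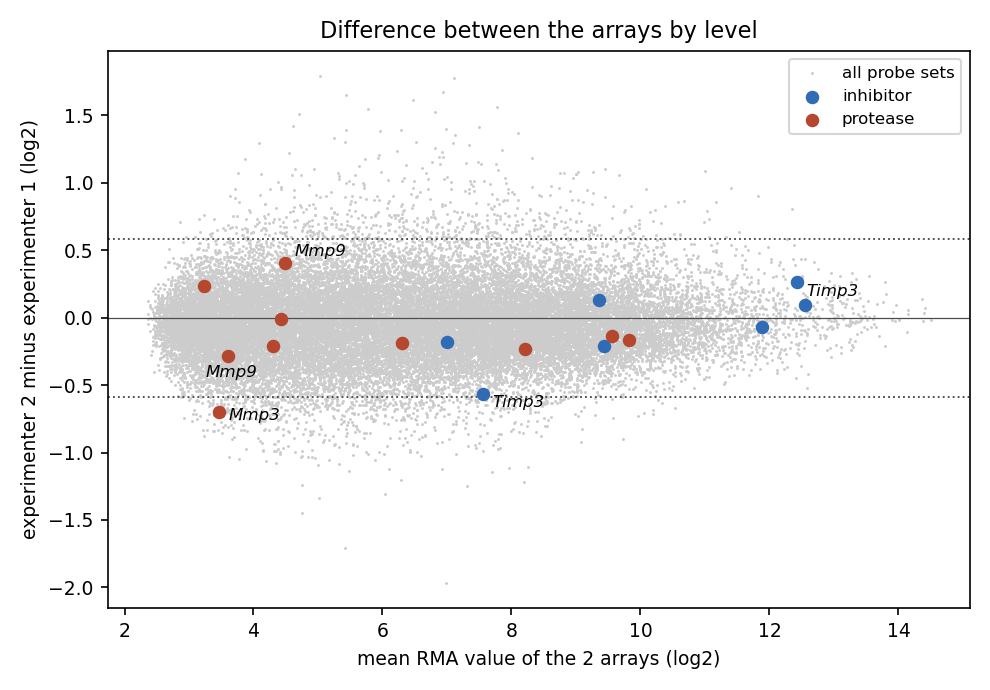
The difference between the arrays (experimenter 2 minus experimenter 1, log2, vertical axis) is plotted against the mean of both values (log2, horizontal axis) for all probe sets in grey, the 7 inhibitor probe sets in blue and the 10 protease probe sets in red; dotted lines mark 1.5-fold. Among member probe sets only that of *Mmp3*, at -0.70, lies beyond them, and the points of *Mmp9* and *Timp3* lie on both sides of 0.

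Different probe sets of 1 gene share its RNA but not its probes. Of the 5 members with at least 2 probe sets, all probe sets had the same direction for 3 (*Mmp2*, *Mmp14* and *Timp2*) and not for *Mmp9* and *Timp3*. Among all 4525 genes with at least 2 probe sets, 44.3% had 1 direction throughout. The probe sets of a gene spanned a median of 4.89 in mean level for these 5 members and 2.15 for all such genes.

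Over the whole *Mmp* family, genes of the run mostly had lower values by their brightest probe sets than genes elsewhere, a split made after the values had been seen and one that sets different probes side by side. Of the 10 genes of the chromosome 8 run, 6 were measured, and they ran from 2.86 to 6.21 for experimenter 2 and from 2.85 to 6.40 for experimenter 1. Of 13 *Mmp* genes elsewhere, 11 were measured, from 4.69 to 9.73 for experimenter 2 and from 4.29 to 9.90 for experimenter 1. In the run, 4 of 6 genes lay below the lower quartile on both arrays. Elsewhere 0 of 11 did on both and 1, *Mmp9*, did for experimenter 1. That count rests on the choice of probe set. The dimmer probe sets of *Mmp2* and *Mmp9*, given above, lay below the lower quartile on both arrays. Each measured gene of the run has 1 probe set, whereas *Mmp2*, *Mmp9*, *Mmp14*, *Mmp23* and *Mmp24* have 2 or 3. The quartile is that of probe sets, and by brightest probe sets the median of all genes stood at percentile 66.9 for experimenter 2 and 66.7 for experimenter 1. The ranges overlapped through *Mmp12* and *Mmp8* in the run and *Mmp9*, *Mmp19* and *Mmp28* elsewhere.

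The run's dim genes that are not members were *Mmp13*, a collagenase of cartilage and bone, at 2.86 for experimenter 2 and 2.85 for experimenter 1, and *Mmp10*, a stromelysin, at 3.40 and 3.16. Both lay near the bottom of the arrays, at percentiles 3.05 and 2.46 for *Mmp13* and 10.5 and 6.07 for *Mmp10*, again with experimenter 2 first.

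**Figure D4:**
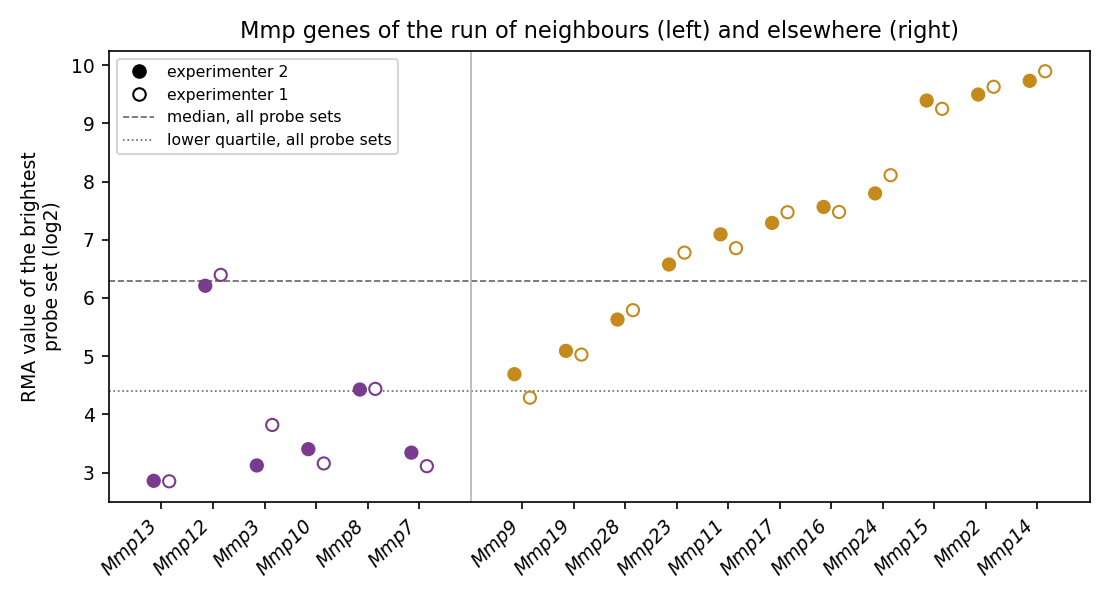
The RMA value of the brightest probe set (log2, vertical axis) is shown for the 6 measured *Mmp* genes of the chromosome 8 run in their order along it (purple, left) and the 11 measured elsewhere in order of level (ochre, right), filled for experimenter 2 and open for experimenter 1; dashed and dotted lines are the median and lower quartile of all probe sets. In the run, *Mmp12* alone reaches the median line, and on the right 8 genes lie above it.

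The sequence before the gene start was compared over the genes with a window, which are not all those measured. The RefSeq promoter table held 33469 windows of 27457 genes, among them 7 of the 10 members (*Mmp3*, *Mmp7*, *Mmp8*, *Mmp12* and the 3 *Timp* genes) and 21 *Mmp* and *Timp* genes in all, and the 250 bases before the start were searched on both strands. Of the 10 windows of the run, 8 held a TATA box, against 12.9% of all windows, 7 held an AP-1 match, against 6.34%, and 0 held a GC box, against 30.5%. The 7 windows of *Mmp* genes elsewhere were those of *Mmp11*, *Mmp15*, *Mmp21*, *Mmp23*, *Mmp24*, *Mmp25* and *Mmp28*, none of them a member and *Mmp21* and *Mmp25* not measured. Of these, 6 held a GC box, 1 a TATA box (*Mmp21*) and 0 an AP-1 match. Of 4 *Timp* windows, 3 held a GC box and none a TATA or AP-1 match. These genes are relatives, some of them neighbouring duplicates, so their windows are not independent. The shares over all windows were not matched for the G and C content given below.

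G and C made up 36.0% to 48.0% of the windows of the run, 53.6% to 83.6% of those of the other *Mmp* genes and 50.8% to 72.0% of those of the *Timp* genes, with a median of 51.2% over all windows. The member windows had 3 CpG dinucleotides for *Mmp3* and *Mmp7*, 4 for *Mmp12*, 5 for *Mmp8*, 9 for *Timp1*, 23 for *Timp3* and 27 for *Timp2*. The start used for *Timp1* lies 1456 bases inside the RefSeq gene, so its window may not be the promoter of its longest transcript. The starts of *Mmp23* and *Timp4* also lie inside their genes, by 473 and 146 bases, and those of *Mmp8* and *Mmp3* by 17 and 14. A match is a run of letters and shows no binding.

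**Figure D5:**
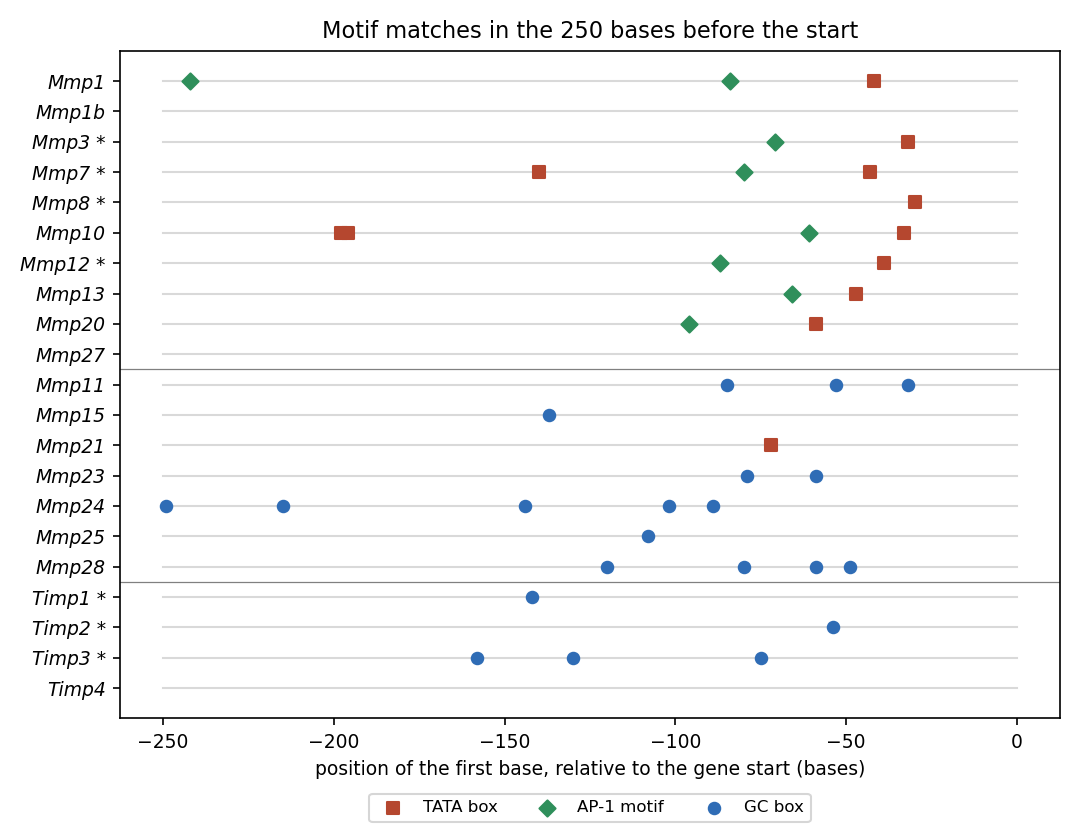
Matches to the TATA box (red squares), the AP-1 motif (green diamonds) and the GC box (blue circles) are placed by the distance of their first base from the gene start (bases, horizontal axis) for the genes of the chromosome 8 run (top), other *Mmp* genes (middle) and *Timp* genes (bottom), with members starred. TATA and AP-1 matches lie in the top group except for the TATA box of *Mmp21*, and GC boxes only in the lower groups.

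The surroundings of the members, in 6 lists of related genes, were about as alike between the arrays. Of 69 genes listed, 59 were measured. By brightest probe sets 1 of these (1.69%) was at least 1.5-fold apart, beside the 3.24% of all genes. Their median difference was -0.057, with 25 higher and 34 lower for experimenter 2.

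Of 15 other *Mmp* genes listed, 10 were measured, with a median difference of 0.036, and 6 were higher and 4 lower for experimenter 2. The brightest were *Mmp15*, a membrane-type relative of *Mmp14*, at 9.39 for experimenter 2 and 9.25 for experimenter 1, *Mmp24*, a membrane-type enzyme of the nervous system, at 7.80 and 8.11, and *Mmp16*, another membrane-type enzyme, at 7.56 and 7.48. The largest difference was that of *Mmp24*, -0.31, and its other probe sets differed by 0.19 and -0.10.

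Other inhibitors numbered 5, with a median difference of -0.28. *Reck*, a membrane-anchored inhibitor of metalloproteinases, was bright and alike on both arrays, at 10.72 for experimenter 2 and 10.70 for experimenter 1. *Tfpi2*, a serine protease inhibitor of the matrix, was the 1 related gene past 1.5-fold by brightest probe sets. It read 4.48 for experimenter 2 and 3.82 for experimenter 1. *Pcolce*, whose main known role is to enhance procollagen processing, read 8.43 for experimenter 2 and 8.84 for experimenter 1, a difference of -0.41.

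Activators and the plasmin system had a median difference of 0.060 over 11 of 14 genes, 6 higher and 5 lower. *Plat* and *Plau*, the plasminogen activators, read 10.23 and 8.85 for experimenter 2 and 10.39 and 9.03 for experimenter 1. *Pcsk6*, a proprotein convertase, read 7.54 for experimenter 2 and 7.65 for experimenter 1, and *Furin*, the convertase that processes *Mmp14*, read 7.64 and 7.54. The largest difference was that of *Serpine2*, a thrombin and plasminogen activator inhibitor, at 0.36.

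Of 14 substrates of the proteases, 11 were lower for experimenter 2, beside 58.7% of all genes, and their median difference was -0.082, beside -0.049 for all genes. *Sparc*, a collagen-binding matricellular protein, read 13.16 for experimenter 2 and 13.22 for experimenter 1, *Col3a1*, a fibrillar collagen chain, 12.67 and 12.69, and *Col1a2*, another, 11.56 and 11.60. By brightest probe sets, *Fbn1*, the microfibril protein fibrillin, and *Vcan*, the proteoglycan versican, differed most, by -0.50 and -0.49. The dimmer probe set of *Lamc1* differed by 0.55, and its brighter one by -0.13. *Eln*, elastin, the substrate of *Mmp12*, read 8.06 for experimenter 2 and 8.03 for experimenter 1 by its brightest probe set, and 7.55 and 7.82 by its other, a difference of -0.27.

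ADAM and ADAMTS relatives had a median difference of -0.084 over 11 of 13 genes, with 4 higher and 7 lower. *Adam17*, the sheddase that *Timp3* blocks, read 10.80 for experimenter 2 and 10.99 for experimenter 1. *Adam19* read 9.48 for experimenter 2 and 9.56 for experimenter 1, and *Adam15* read 9.13 and 9.30. By brightest probe sets, the versican-cutting *Adamts9* and *Adamts5* had the largest differences, -0.41 and 0.38. The second probe set of each had the opposite sign, at 0.33 for *Adamts9* and -0.23 for *Adamts5*. A larger difference, -0.94 and past 1.5-fold, was that of the dimmer probe set of *Adam10*. It read 4.80 for experimenter 2 and 5.73 for experimenter 1. The brighter probe set of *Adam10* differed by 0.095, in the opposite direction.

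Surface partners and inducers had a median difference of 0.0010 over 8 genes, 4 higher and 4 lower. *Cd63*, a tetraspanin that binds *Timp1*, read 11.79 for experimenter 2 and 11.67 for experimenter 1. *Bsg*, basigin, an inducer of metalloproteinases, read 11.40 for experimenter 2 and 11.78 for experimenter 1. *Lcn2*, lipocalin, which binds *Mmp9*, read 11.43 for experimenter 2 and 11.69 for experimenter 1.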

How the data were processed

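The deposited table holds 31099 probe sets for 2 arrays, 1 per experimenter, and 57 control probe sets were left out. The authors made the values with RMA, per the submitters' processing notes, which background-corrects, gives the arrays a common intensity distribution and summarises each probe set. The deposited values were taken as log2 from their range; the sources used here state neither the base nor the RMA version, nor which arrays were normalized as a set. A common distribution hides differences in total RNA.

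Of 31042 probe sets, 20826 had 1 symbol, 436 had several and 9780 had none; 0 with several symbols named a member. Symbols were matched through Entrez identifiers to those of GRCr8 for 20758, whether or not the symbol changed. The brightest probe set, by the mean of both values, stood for a gene. No test or p-value was possible with 1 array per experimenter, so 1.5-fold served as a rule of size. All members were named; related genes were named for the highest means and the largest differences of each list, and the convertase, elastin and synapsin hosts for their link to a member. Members and lists were chosen with earlier results of these data known. The place in the genome, the partner pairs, the synapsin hosts and the motifs were chosen after the values were seen. Alternatives were centring, quantile normalization, a loess trend (fraction 0.3), other probe set choices, a filter on level, means for medians, other fold thresholds and leaving out *Mmp14*. Scripts were tested on simulated data. The number of arrays limits the precision. Computations used Python 3.11.15, numpy 2.4.6, pandas 2.3.3, statsmodels 0.14.6 and matplotlib 3.10.9.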

Additional observations from a re-analysis of the deposited data

How the results depend on the processing

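No paired analysis was possible because there was 1 array for each experimenter, which also left none to leave out. A value was said to have moved when it shifted by more than the SD between the arrays over all probe sets, 0.28 for levels and differences and 3.56 for percentiles. Of 40 single-gene differences recomputed, 2 moved, both of *Mmp9*, to 0.060 when probe sets were averaged and to -0.28 by the second brightest. Signs near 0 turned for *Mmp8*, with all 3 normalizations (0.023 to 0.049), and for *Timp3*, when its probe sets were averaged (-0.021). Centring removes the offset between the array medians, 6.28 for experimenter 2 and 6.32 for experimenter 1. In the average of *Timp3* only its dimmest probe set, at -0.57, was below 0. Why its probe sets disagreed was not tested. The median differences of inhibitors and proteases stayed below 0 under every alternative run.

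The inhibitor minus protease gap in level kept its sign but moved. For experimenters 2 and 1 it was 4.95 and 5.10 when probe sets were averaged. With the second brightest, for genes with at least 2 probe sets, it was 5.12 and 5.12. It was 2.23 and 2.16 without members under the median level, and 5.39 and 5.38 with means over genes. The gap in percentile, 69.4 and 73.8 as reported, moved to 61.8 and 63.8, 65.4 and 64.6, 8.46 and 7.65, and 52.5 and 52.7 in the same order. Without *Mmp14* neither gap moved. The count of member genes past the fold threshold was 0 without members under the median level, where 5 genes are left, 0 at 2-fold and 2 at a lower threshold of 0.32 in log2. No detection calls were used, so whether the dim members were above background was not tested. The SD of the difference was 0.25 over probe sets with means under the lower quartile.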

Other observations

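*Itgav*, the integrin alpha chain that pairs with *Itgb3* and can hold *Mmp2* at the cell surface, differed by 0.58, just under 1.5-fold (1.498-fold), in the same direction by all 3 of its probe sets. The brightest read 9.49 for experimenter 2 and 8.91 for experimenter 1, the second 6.21 and 5.81, and the third 5.82 and 5.51. *Itgb3* itself read 8.73 for experimenter 2 and 8.42 for experimenter 1. The cause was not tested.

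*Fbn1* and *Vcan*, the matrix genes with the largest differences among the substrates, were lower for experimenter 2 by most of their probe sets. They were picked by the difference of their brightest probe sets, which are among those counted here, and 58.7% of all genes were lower for experimenter 2. Both probe sets of *Fbn1* were lower, by -0.50 and -0.22. Of the 5 probe sets of *Vcan*, 4 were lower, and the exception, at 0.25, is a probe set whose identifier marks probes that can match other transcripts.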
